A study of Mus musculus with 48 samples.

Results

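The crypt stem cell genes comprised 9 genes taken by symbol: Lgr5, Olfm4, Ascl2, Smoc2, Axin2, Rnf43, Znrf3, Lrig1 and Lgr4. All 9 were found among the 54532 genes of the table, and all 9 were among the 21986 genes that passed the filter on low counts and were tested. The tissue was small intestine of C57Bl/6J mice of both sexes, with no treatment or transgene. A sample was 2 cm of gut, cut just below the pylorus for duodenum and just above the ileocaecal junction for ileum. Collection ran over postnatal days 0, 2, 4, 6 and 8 and weeks 2, 3 and 4, and every region and age has 3 samples. Housing is given as standard germ-free, but the same label also mentions varying exposure to microbes, so the microbial status is not clear. Mice left the dam for chow at day 21.

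The epithelium of the small intestine is renewed from stem cells at the base of crypts, pockets that in mice form from a flat intervillus layer during the first weeks after birth. Wnt ligands keep these cells dividing. R-spondins strengthen the Wnt signal by binding LGR receptors and drawing the ubiquitin ligases RNF43 and ZNRF3 away from Frizzled, the Wnt receptor, which these ligases otherwise remove from the cell surface. The labels call the tissue whole thickness, so a transcript level here joins the share of cells that hold a transcript with the amount per cell, and fewer cells and less RNA per cell cannot be told apart.

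The 2 samples numbered 3 at day 6, 1 per region, were left out. For all 9 genes each of them lay nearer the other region's day 6 samples than its own. With all 48 samples scaled together, Olfm4 was at 1145 CPM (read counts scaled by library size) in the one labelled duodenum, where the other day 6 duodenum samples had 6042 and 6236 and the ileum samples 1094 and 804. Since the members are tested below, their own values are no independent ground for the omission. Outside the set, Pdx1 was at 0.115 CPM in that sample, against 11.1 and 11.7 in the duodenum samples and 0.0872 and 0.421 in the ileum samples. Fabp6 was at 1.98, against 0 and 0 in the duodenum samples and 3.62 and 2.27 in the ileum samples. The left-out sample labelled ileum had 14.6 CPM of Pdx1 and 0 of Fabp6. The other 46 samples, rescaled without those 2 for all values that follow, held 16824021 to 65042327 counts each, of which 13.1% to 35.2% were mitochondrial. Epithelium markers were abundant, with a summed level of 4012 to 12565 CPM over 12 genes at day 0, day 8 and week 4. Smooth muscle markers had a summed level of 117 to 464 CPM over 8 genes at the same ages. Of these genes, 2 picked after their values were seen were low for tissue called whole thickness. Acta2, the smooth muscle actin, reached at most 38.1 CPM in any sample and Myh11, smooth muscle myosin, at most 61.6. The other genes of the list are not given singly, so these 2 do not speak for the list. Nothing in the labels says that samples of a group came from separate animals, so p-values measure the spread between these samples.

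All 9 genes had their highest duodenal mean at day 6, as the plot of CPM by age shows, whereas the highest ileal means were spread from day 6 to week 4. The day 6 groups have 2 samples each, and the share of all genes with their highest mean there was not counted. For Smoc2 and Lrig1 the duodenal samples of day 6 and day 8 overlapped, with means of 92.5 and 91.1 CPM for Smoc2 and 68.7 and 68.5 for Lrig1. A duodenal sample of another age also passed a day 6 sample for Ascl2 (day 4, 14.8 against 14.5) and Axin2 (week 2, 128 against 126). For Lgr4 a day 4 sample, at 200 CPM, passed the day 6 samples, at 189 and 195. In the ileum Rnf43 was highest at day 6, Lgr5, Olfm4, Ascl2 and Znrf3 at day 8, Axin2 at week 2, and Smoc2, Lrig1 and Lgr4 at week 4. Neighbouring ages lay close here too: ileal Rnf43 had means of 49.8 at day 6 and 49.4 at week 2, and the week 4 mean of ileal Smoc2 rested on replicate 2, at 51.9 CPM. By edgeR's quasi-likelihood test with Benjamini-Hochberg adjustment over all genes, the age effect was called (adjusted p under 0.05) for 9 of 9 members in the duodenum, where 67.4% of all genes were called. In the ileum it was called for 8 of 9, against 58.7% of all genes, and Znrf3 missed the threshold (adjusted p = 0.13). The duodenal call of Lgr4 was the weakest (adjusted p = 0.0264), and it was lost, with an adjusted p of up to 0.0792, without day 0 replicate 3, day 6 replicate 1 or 2, or week 4 replicate 2 or 3.

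**Figure D1:**
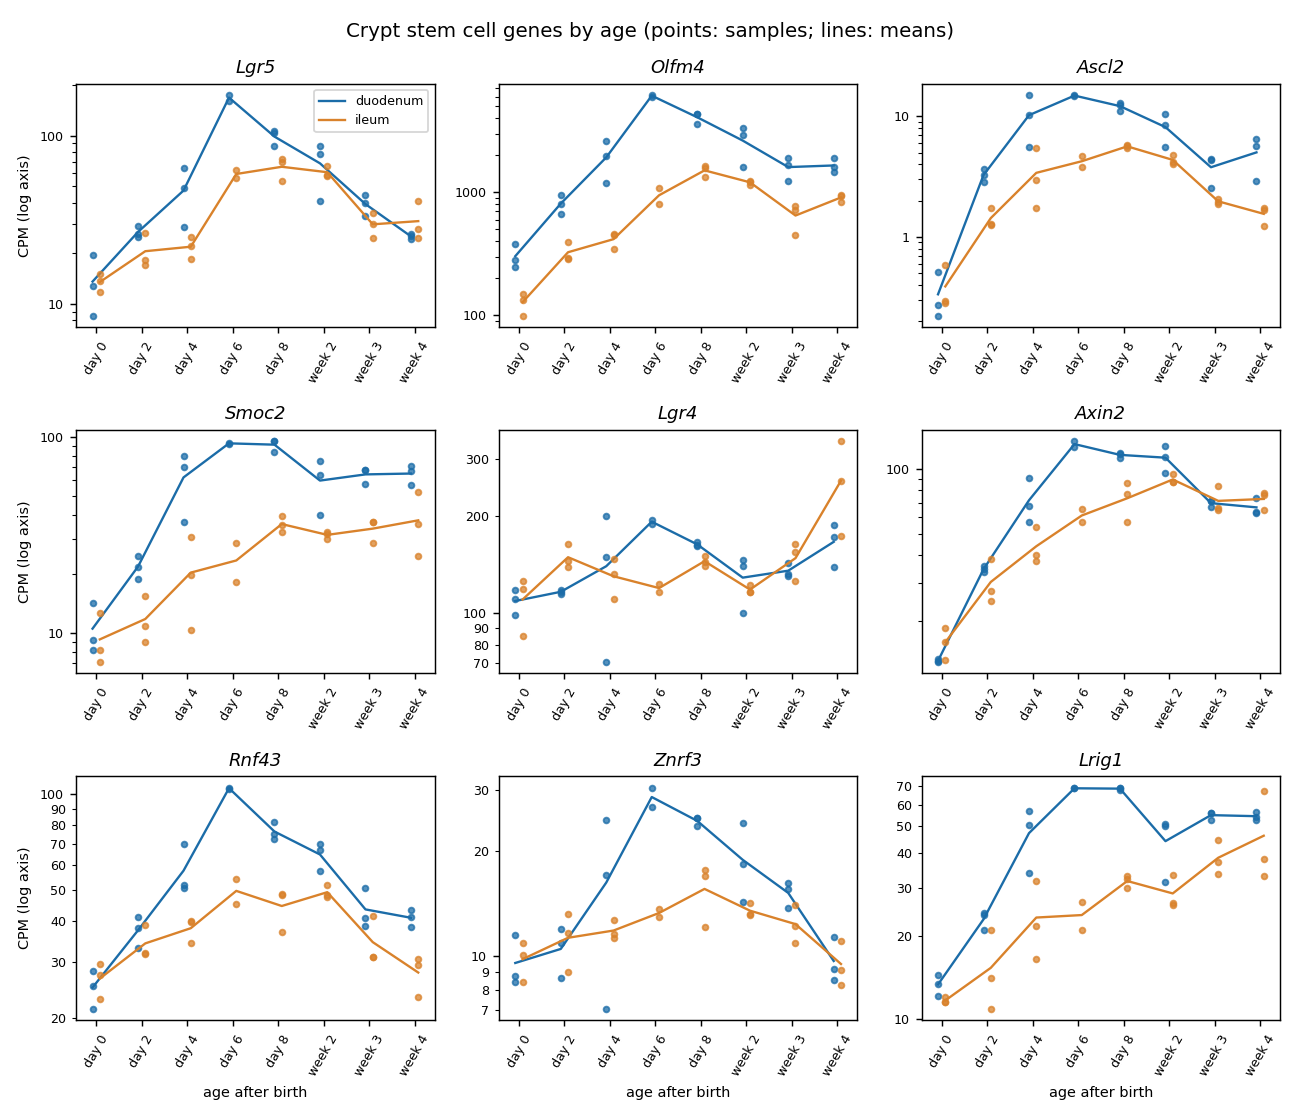
CPM of each gene (log axis) against age in duodenum (blue) and ileum (orange). Points are samples, 3 per group and 2 at day 6, lines join the group means, and ages are spaced evenly although the intervals differ; duodenal Lgr5 climbs from a mean of 13.6 CPM at day 0 to 168 at day 6, while duodenal Lgr4 stays between 109 and 192.

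Lgr5, the R-spondin receptor that marks the columnar cells of the crypt base, is encoded at chr10:115450311-115587780 on the minus strand (GRCm38). Duodenal samples had 8.51, 12.8 and 19.5 CPM at day 0, 175 and 161 at day 6, 86.4, 106 and 103 at day 8, and 24.4, 25.4 and 25.9 at week 4. Samples of day 6 and day 8 all lay above those of day 0 and week 4. The rise from day 0 to day 8 was 7.21-fold (log2 2.85 ± 0.26 SE, adjusted p = 1.27e-10), and the fall from day 8 to week 4 was 3.91-fold (log2 -1.97 ± 0.25, adjusted p = 6.83e-08). Ileal samples had 15.2, 13.7 and 11.8 CPM at day 0, 53.9, 72.1 and 69.8 at day 8, and 24.8, 40.6 and 27.8 at week 4. There Lgr5 rose 4.83-fold and then fell by 1.07 on the log2 scale (adjusted p = 0.000778), again without overlap between the groups compared. The duodenal level at week 4 was still 1.85-fold above day 0 (adjusted p = 0.00454), but without day 0 replicate 1 this call was lost (log2 0.64, adjusted p = 0.0584).

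Olfm4, a secreted glycoprotein that is abundant in mouse crypt base cells, had by far the highest level of the set per length of transcript. It lies at chr14:79984081-80023139 on the plus strand. Its mean at day 6 in the duodenum was 2065 CPM per kilobase of exon, against 16.3 for Lgr5. Duodenal samples had 283, 247 and 378 CPM at day 0, 6003 and 6233 at day 6, and 1918, 1452 and 1598 at week 4. Ileal samples had 98.8, 150 and 134 CPM at day 0, 1628, 1580 and 1325 at day 8, and 939, 960 and 829 at week 4. Every ileal sample at day 0 lay below every duodenal one, and Olfm4 was the 1 member whose regional difference was already called at birth (log2 -1.24 ± 0.25, adjusted p = 0.00148). From day 0 to day 8 it rose 13.5-fold in the duodenum and 11.8-fold in the ileum (adjusted p = 4.01e-13 and 2.97e-12). Its ileal fall to week 4 (log2 -0.73, adjusted p = 0.0176) was lost without day 8 replicate 1 (adjusted p = 0.056).

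Ascl2, a transcription factor of the basic helix-loop-helix family that is needed for the stem cell state and responds to Wnt, showed the largest fold of the set. It is a short gene, at chr7:142966829-142969264 on the minus strand. Duodenal samples had 0.222, 0.273 and 0.51 CPM at day 0, 2.83, 3.27 and 3.67 at day 2, and 12.3, 11.03 and 12.9 at day 8. The rise to day 8 was 34.0-fold in the duodenum (log2 5.09 ± 0.40, adjusted p = 3.73e-12) and 14.5-fold in the ileum (log2 3.86 ± 0.40, adjusted p = 4.00e-09). On the log2 scale most of the duodenal rise came by day 2 (3.19 ± 0.39, adjusted p = 7.98e-07). Counts of Ascl2 ran from 6 to 599 per sample, the fewest of the set, so the day 0 values are the least precise. By week 4 it had fallen 2.41-fold in the duodenum and 3.66-fold in the ileum (adjusted p = 0.00152 and 5.05e-05).

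The stretches before the transcription start are shown for Ascl2, which rose most, for Olfm4, which was most abundant, and for Lgr4, whose duodenal level moved least, so that promoters of members with different courses can be compared. In the ileum Znrf3 and Rnf43 spanned less than Lgr4, with a highest mean 1.64, 1.88 and 2.33 times the lowest. Each is the 250 bases upstream of the RefSeq start (GRCm38.p6), read 5′ to 3′ on the gene's strand, with CCAAT or its reverse complement ATTGG in capitals. For Olfm4 this start lies inside the GENCODE gene span given above. The intervals are chr7:142969265-142969514 (minus strand), chr14:80000052-80000301 (plus) and chr2:109917397-109917646 (plus).
Ascl2: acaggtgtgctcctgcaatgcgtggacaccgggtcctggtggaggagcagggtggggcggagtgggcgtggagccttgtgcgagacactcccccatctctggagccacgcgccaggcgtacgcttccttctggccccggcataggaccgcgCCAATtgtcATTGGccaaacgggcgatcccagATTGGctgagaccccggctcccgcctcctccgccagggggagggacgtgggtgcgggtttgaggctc
Olfm4: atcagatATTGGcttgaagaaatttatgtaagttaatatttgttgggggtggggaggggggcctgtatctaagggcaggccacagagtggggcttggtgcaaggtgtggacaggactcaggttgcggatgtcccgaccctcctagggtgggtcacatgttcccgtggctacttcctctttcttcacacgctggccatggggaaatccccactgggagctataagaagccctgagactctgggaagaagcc
Lgr4: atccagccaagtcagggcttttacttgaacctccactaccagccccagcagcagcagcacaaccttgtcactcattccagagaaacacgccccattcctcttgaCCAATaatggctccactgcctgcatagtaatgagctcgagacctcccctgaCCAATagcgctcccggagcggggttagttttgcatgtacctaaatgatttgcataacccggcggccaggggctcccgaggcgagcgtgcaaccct
Windows of 300 bases, reaching 50 bases past the start, were found for 6 members in 7 entries, 2 of them for Rnf43. The Wnt-related TCF/LEF motif CTTTGAT, searched on both strands, was in 0 of the 7 windows and in 3.73% of 32851 windows of all genes. CCAAT, a motif chosen after the windows were seen, was in 5 of the 7, those of Ascl2, Axin2, Lgr4, Lrig1 and Olfm4, and in 37.4% of all windows. It was therefore present both in members that rose steeply and in Lgr4.

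Smoc2, a secreted calcium-binding matrix protein, and Lrig1, a transmembrane inhibitor of ErbB growth factor receptors, followed nearly the same course. Smoc2 lies at chr17:14279506-14404790 on the plus strand and Lrig1 at chr6:94604529-94700158 on the minus strand. Smoc2 in duodenal samples was 8.15, 9.20 and 14.1 CPM at day 0, 83.4, 94.96 and 94.98 at day 8, and 71.3, 56.4 and 67.1 at week 4. Lrig1 in duodenal samples was 13.5, 12.2 and 14.5 CPM at day 0, 68.8, 67.6 and 69.1 at day 8, and 53.0, 54.2 and 56.2 at week 4. Their duodenal rises to day 8 were 8.64-fold and 5.11-fold (adjusted p = 8.69e-10 and 3.98e-10). Neither fall to week 4 passed the test (adjusted p = 0.18 and 0.235). The samples of the 2 ages did not overlap for either gene, but the share of all genes without overlap in CPM is not given. The lack of overlap therefore does not stand in for a call. In the ileum Smoc2 had 35.8, 51.9 and 24.6 CPM at week 4 and Lrig1 38.2, 67.4 and 33.1, with replicate 2 the highest for both. The ileal difference of Lrig1 between week 4 and day 8 was log2 0.55 ± 0.22 (adjusted p = 0.0511), and without week 4 replicate 3 it passed the threshold (adjusted p = 0.0262).

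Axin2, a scaffold of the complex that destroys beta-catenin and a common Wnt target, rose in both regions and later fell in the duodenum. It lies at chr11:108920349-108950783 on the plus strand. Duodenal samples had 13.1, 12.9 and 13.4 CPM at day 0, 134 and 126 at day 6, 112, 117 and 119 at day 8, and 62.7, 73.1 and 63.7 at week 4. In the ileum they had 18.6, 16.1 and 13.3 CPM at day 0, 57.2, 76.8 and 85.7 at day 8, and 77.8, 75.5 and 64.8 at week 4. The rise to day 8 was 8.80-fold in the duodenum and 4.59-fold in the ileum (adjusted p = 1.49e-15 and 7.90e-12). In the duodenum it then fell 1.74-fold (adjusted p = 0.000148), whereas in the ileum week 4 and day 8 overlapped (log2 -0.01 ± 0.17, adjusted p = 0.97).

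Rnf43 and Znrf3, the paired ubiquitin ligases that remove Frizzled, had smaller folds than the members above and came back closer to their level at birth than those did. Rnf43 lies at chr11:87662722-87735539 on the plus strand and Znrf3 at chr11:5276324-5444847 on the minus strand. Duodenal Rnf43 was 28.1, 21.4 and 25.2 CPM at day 0, 103.8 and 104.7 at day 6, and 43.5, 38.4 and 41.3 at week 4. Duodenal Znrf3 was 11.5, 8.43 and 8.77 CPM at day 0, 30.5 and 26.8 at day 6, and 8.53, 9.20 and 11.4 at week 4. From day 0 to day 8 Rnf43 rose 3.06-fold and Znrf3 2.56-fold in the duodenum (adjusted p = 1.96e-10 and 2.05e-05), and 1.69-fold and 1.60-fold in the ileum (adjusted p = 0.000349 and 0.0443). At week 4 Znrf3 did not differ detectably from day 0 in either region, with 95% intervals of log2 -0.46 to 0.49 in the duodenum and -0.52 to 0.44 in the ileum. The same held for ileal Rnf43 (-0.23 to 0.36), while duodenal Rnf43 was 1.65-fold higher than at day 0 (adjusted p = 0.000173). The ileal rise of Znrf3 was lost (adjusted p of up to 0.168) on leaving out any 1 of the 6 samples except day 8 replicate 1. Its ileal fall to week 4 (log2 -0.71, adjusted p = 0.02) was lost without day 8 replicate 2 or 3 or week 4 replicate 1 (adjusted p of up to 0.0846).

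Lgr4, the broadly expressed relative of Lgr5 and a second R-spondin receptor, stood apart from the other members. It lies at chr2:109917647-110014257 on the plus strand. Duodenal samples had 118, 111 and 98.6 CPM at day 0, 149, 200 and 70.5 at day 4, 162, 162 and 166 at day 8, and 139, 188 and 172 at week 4. Ileal samples had 126, 119 and 85.3 CPM at day 0, 144, 150 and 140 at day 8, and 257, 341 and 174 at week 4. Its duodenal rise to day 8 was log2 0.58 ± 0.22 (adjusted p = 0.029). That call was lost on leaving out any 1 of the 6 samples except day 0 replicate 1 (adjusted p of up to 0.115). Between day 8 and week 4 ileal Lgr4 rose 1.78-fold (adjusted p = 0.00248), opposite in sign to the 5 members that fell there. This rise rested in part on week 4 replicate 2, without which it was log2 0.52 (adjusted p = 0.0824). The duodenal sample at 70.5 CPM, day 4 replicate 3, was also the lowest of its group for Lgr5 (28.7 against 48.7 and 64.1 CPM) and Znrf3 (7.06 against 17.1 and 24.7), but not for Ascl2, where it was the highest (14.8 against 5.53 and 10.2).

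Counted together, 9 of 9 members rose from day 0 to day 8 in the duodenum, where 41.2% of all genes were called and 22% were called higher. In the ileum 8 rose, against 19.3% called and 8.56% called higher, and Lgr4 missed the threshold (log2 0.39, adjusted p = 0.212). The median member change was log2 2.85 in the duodenum and 1.95 in the ileum, where the medians of all tested genes were -0.06 and 0.01. From day 8 to week 4, 6 members fell in the duodenum, namely Lgr5, Olfm4, Ascl2, Axin2, Rnf43 and Znrf3, against 42.3% called and 23.8% called lower. In the ileum 5 fell, the same genes without Axin2, and Lgr4 rose, against 35.2% called, 17.3% lower and 17.9% higher. At week 4, 8 members remained above day 0 in the duodenum (40.5% of all genes called, 20.4% higher) and 7 in the ileum (41.9% called, 21.5% higher). The duodenal week 4 call of Lgr4 (log2 0.61, adjusted p = 0.023) was lost without day 0 replicate 2 or 3 or week 4 replicate 2 (adjusted p of up to 0.0637).

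**Figure D2:**
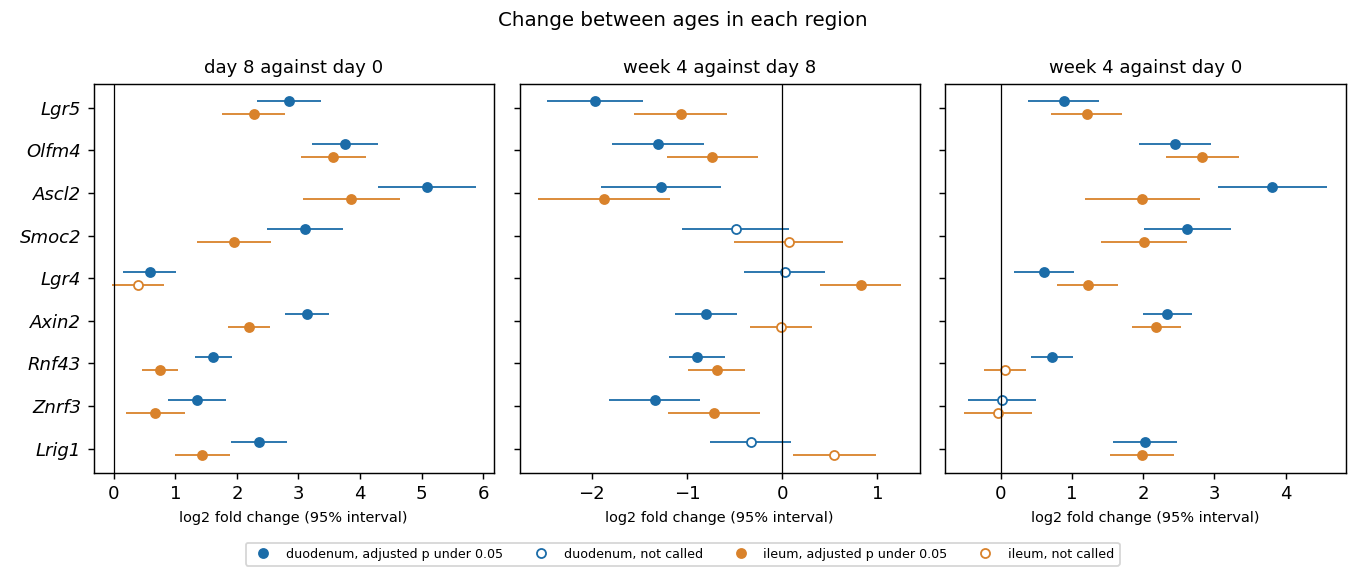
Log2 fold change of each gene between 2 ages, with 95% intervals, in duodenum (blue) and ileum (orange). Filled points passed an adjusted p of 0.05 and open points did not; changes from day 0 to day 8 lie to the right of 0 for all 9 genes, and Ascl2 in the duodenum is farthest out at 5.09.

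Taking neighbouring ages step by step, the duodenal calls for a rise fell between day 0 and day 6, and most calls for a fall lay between week 2 and week 3. The means declined over a longer time: duodenal Lgr5 averaged 168 CPM at day 6, 98.5 at day 8, then 68.4, 39.2 and 25.2 over the 3 later ages. In the duodenum 7 members rose from day 0 to day 2 (6.8% of all genes called, 3.58% higher), 8 from day 2 to day 4 (25.3% called, 15.5% higher) and 4 from day 4 to day 6 (5.82% called, 1.45% higher), these last being Lgr5, Olfm4, Axin2 and Rnf43. From week 2 to week 3, 5 members fell, Lgr5, Olfm4, Ascl2, Axin2 and Rnf43 (18.3% called, 10.6% lower). In the ileum 3 rose from day 0 to day 2, Olfm4, Ascl2 and Axin2 (5.2% called, 2.59% higher), 2 from day 4 to day 6, Lgr5 and Olfm4 (1.34% called, 0.7% higher), and 4 fell from week 2 to week 3, Lgr5, Olfm4, Ascl2 and Rnf43 (26.8% called, 13.9% lower). Over the 7 steps there were 25 calls of 63 in the duodenum, against 12.1% of steps called over all genes, and 10 of 63 in the ileum, against 8.04%. Single steps were fragile: 12 of the 25 and 5 of the 10 were lost on leaving out some 1 sample. With only the compared groups in the fit, edgeR called 0 members from day 2 to day 4 in the duodenum, although 7 had an unadjusted p under 0.05. That fit called 0 of all 17939 genes tested, so this loss was not particular to the members. DESeq2 on all 46 samples called 7 members in that step (6155 of 20698 genes). No member was called by edgeR from day 6 to day 8 in the duodenum (0.0728% of all genes called, 3 members at an unadjusted p under 0.05) or from week 3 to week 4 there (12.7%, 2 members). The same held in the ileum from day 2 to day 4 (0.0318%, 4 members), from day 6 to day 8 (0.173%, 1 member) and from day 8 to week 2 (6.64%, 0 members). DESeq2 also called 0 in these 5 steps. Other fits did make calls: with only the compared groups, edgeR called 4 members from day 6 to day 8 in the duodenum (1878 of 18305 genes). It called 2 from week 3 to week 4 there (3093 of 17341) and 1 from day 8 to week 2 in the ileum (3472 of 17835). A filter at a mean count of at least 10 called 2 from week 3 to week 4 in the duodenum (3041 of 17791 genes). A fit on the 40 samples that the authors' normalized tables hold also called 2 there (4568 of 21617). With only the compared groups, the 4 duodenal and 2 ileal calls from day 4 to day 6 were lost, where 0 of 18023 and 0 of 17895 genes were called. The 1 ileal call from week 3 to week 4 was lost too (1527 of 16643 genes called). Lrig1 fell from day 8 to week 2 in the duodenum (15.7% called, 8.93% lower) and Lgr4 rose from week 3 to week 4 in the ileum (16.1% called, 8.26% higher), each a single call that was lost without some samples.

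Between regions, 8 of 9 members were lower in ileum than in duodenum on the mean over ages, where 62.1% of all genes were called and 30.2% were called lower. Olfm4 was lowest relative to duodenum, 2.88-fold (log2 -1.52 ± 0.09, adjusted p = 1.40e-16), followed by Ascl2 at 2.20-fold and Smoc2 at 2.11-fold. Lgr4 did not differ detectably (log2 0.01, 95% interval -0.15 to 0.16). The median difference of the members went from log2 0.01 at day 0 to -1.50 at day 6 and -0.23 at week 4, and the plot of regional difference by age shows each gene. Not every member narrowed to the end. Ascl2 had means of 3.78 CPM in duodenum and 1.97 in ileum at week 3, and of 5.01 and 1.55 at week 4. At birth 1 member was called (6.1% of all genes called), followed by 2 on day 2 (8.01%) and 7 on day 4 (26.6%). All 9 were called on day 6 (35.3%) and 7 on day 8 (39.6%). Later 4 were called in week 2 (22.4%), 2 in week 3 (14.2%) and 5 in week 4 (28.4%). Of the 72 tests, 37 were called, against 22.6% of the same tests over all genes. Of these 37 calls 36 were lower in the ileum, against 11.8% over all genes, and the exception was Lgr4 at week 4 (log2 0.63 ± 0.22, adjusted p = 0.0285), which overlapped between regions and was lost without duodenum replicate 1 or 3 or ileum replicate 2 of week 4 (adjusted p of up to 0.262). At day 6 Olfm4 differed by log2 -2.69 ± 0.32 and Lgr5 by -1.50 ± 0.31 (adjusted p = 1.73e-07 and 0.000245), with 2 samples per region. The day 6 call of Lgr4 was lost without any 1 of those 4 samples (adjusted p of up to 0.188). All day 6 calls depended on the omission of the 2 samples numbered 3. With these put back under their labels, edgeR called 0 members at day 6, as it did 0 of 20901 genes, and 3 members had an unadjusted p under 0.05. With only the compared groups in the fit, the calls fell from 7 to 1 at day 4 and from 5 to 1 at week 4, and they rose from 2 to 4 at day 2. Over all genes these fits called 354 of 17738, 2491 of 17114 and 5408 of 17519, in that order. Moreover, 9 of the 37 calls were lost on leaving out some 1 sample.

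**Figure D3:**
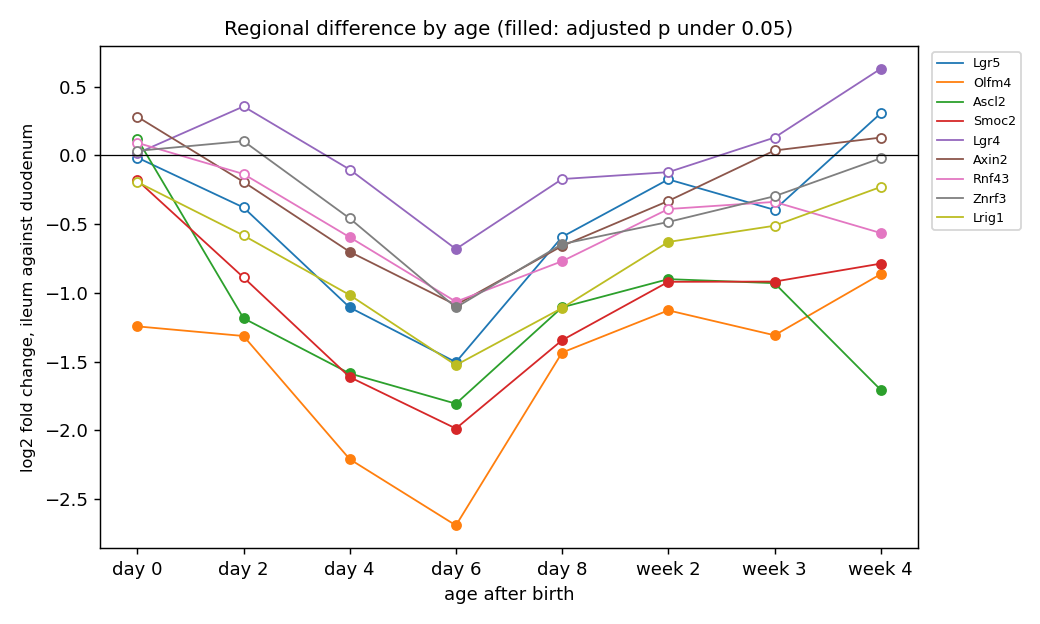
Log2 fold change of ileum against duodenum at each age for the 9 genes, with filled points for an adjusted p under 0.05. Every line is lowest at day 6, where Olfm4 reaches -2.69, and Lgr4 is the 1 gene called above 0, at week 4.

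The age course itself differed between regions for 5 members by the region by age interaction, where 22.4% of all genes were called: Axin2, Rnf43, Olfm4, Lgr5 and Lrig1 (adjusted p = 0.000777, 0.00572, 0.00583, 0.00839 and 0.0276). Smoc2, Lgr4, Znrf3 and Ascl2 did not pass (adjusted p = 0.0541, 0.0768, 0.117 and 0.129). With the 2 left-out day 6 samples put back under their labels, 0 members passed edgeR's interaction test, where 947 of 20901 genes were called. Of the members, 1 had an unadjusted p under 0.05, and the adjusted p of Lgr5 was 0.402. DESeq2 on the 46 samples called 7 members, and 6958 of 21124 genes. Without day 4 and those 2 samples, all 9 passed edgeR's test, as did 9512 of 21617 genes. The number of member calls thus moved with the calls over all genes. The call of Lrig1 was lost without day 6 replicate 1 or 2 or any 1 of the week 4 samples of the duodenum, or without ileum day 6 replicate 2 (adjusted p of up to 0.0998).

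Within a sample, the balance between members also shifted with age. On the scale of CPM per kilobase of exon, Lgr5 stood at 1.33 ± 0.07 (SD, n = 2) of the Lrig1 level in the duodenum at day 6, at 0.783 ± 0.088 (n = 3) at day 8 and at 0.252 ± 0.002 (n = 3) at week 4. In the ileum the ratio was 1.36 ± 0.11 (n = 2), 1.12 ± 0.11 (n = 3) and 0.379 ± 0.068 (n = 3) at the same ages. At the 3 ages before day 6 the mean ratio lay between 0.550 and 0.750 in both regions. Lgr5 was thus the more abundant of the pair per length at day 6 in both regions, and the less abundant before day 6 and in the weeks 3 and 4. The mean ratio of Rnf43 to Znrf3 per length lay between 3.15 and 5.25 in all 16 groups. Single samples ran from 2.94 to 8.67, the latter being duodenum day 4 replicate 3, in the group with the highest mean.

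**Figure D4:**
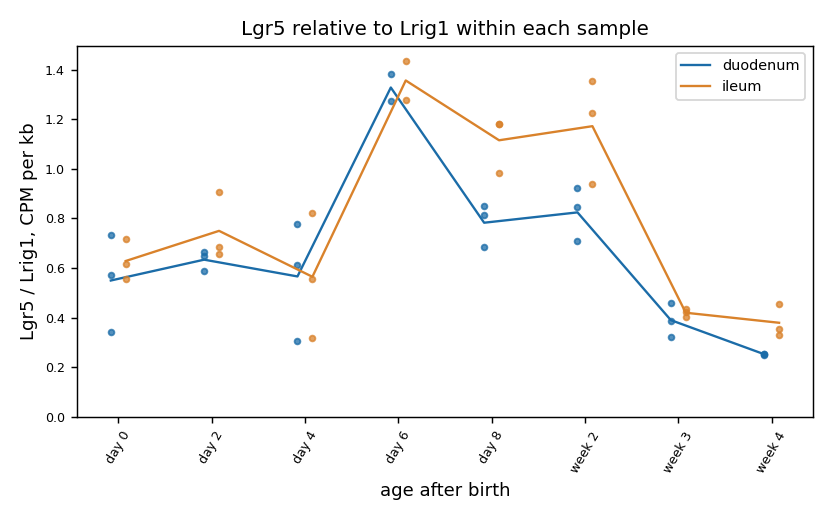
Ratio of Lgr5 to Lrig1, each in CPM per kilobase of exon, by age in duodenum (blue) and ileum (orange); points are samples and lines join means. The mean ratio is highest at day 6 in both regions, 1.33 and 1.36, and lowest at week 4, 0.252 and 0.379.

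The members were also set against 12 epithelium markers, by subtracting the mean log2 CPM of the markers in the same sample. These markers themselves moved: their mean went from log2 8.00 at day 0 to 8.37 at day 8 and 8.94 at week 4 in duodenal samples. Ileal samples had marker means of 8.03, 7.88 and 8.89 at these ages, so a gene with an unchanged CPM went down on this scale from day 8 to week 4. On this scale duodenal Lgr5 went from -4.31 ± 0.53 (SD, n = 3) at day 0 to -1.75 ± 0.23 at day 8 and -4.28 ± 0.12 at week 4. The day 8 samples lay above the day 0 samples without overlap for all members in both regions, except Lgr4 in the duodenum. On the same scale this held for 19.3% of all tested genes (duodenum) and 22.5% (ileum). The week 4 samples lay below the day 8 samples for all members except Lgr4 in the ileum, but so did 57% of all tested genes (duodenum) and 58.9% (ileum), so this count says little about the members. For ileal Lrig1 the scale turned the sign of the difference between day 8 and week 4, from log2 0.55 on the CPM scale to -0.54, and ileal Axin2 went from -0.01 to -1.01. The called ileal rise of Lgr4 turned sign too, to -0.24 on this scale, where its day 8 and week 4 samples overlapped. Ileal Smoc2, with mean CPM of 35.8 at day 8 and 37.5 at week 4, was at -1.01 on this scale.

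Across the 16 group means, members ran closely together apart from Lgr4. The median Pearson r of the 36 pairs was 0.80, the highest was 0.99 for Smoc2 with Lrig1, and the 8 lowest, 0.21 to 0.61, were the 8 pairs with Lgr4. The points share libraries and age, and the values are a description. Outside the set, the most similar of 12347 genes over the same means were Cdca7 (0.97) and Utrn (0.97) for Olfm4, Fzd7 (0.97) and Wnt3 (0.96) for Axin2, Cdo1 for Smoc2 and for Lrig1 (0.99 each), and B930095G15Rik (0.94) for Lgr5. For Lgr4 the closest was Zfp53 (0.90).

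Most other genes of the crypt base rose early, as the members did. Of 22 such genes, 17 rose and 0 fell from day 0 to day 8 in the duodenum (22% of all genes called higher). Over these ages 16 rose and 1 fell in the ileum (8.56% called higher). From day 8 to week 4, 15 fell and 2 rose in the duodenum (23.8% of all genes called lower). Over that interval 9 fell and 1 rose in the ileum (17.3% called lower). Cdca7, a cell cycle-linked Myc target, rose by log2 3.35 ± 0.27 and Msi1, an RNA-binding protein of stem and progenitor cells, by 2.34 ± 0.24 in the duodenum (adjusted p = 7.25e-12 and 5.94e-10). Rgmb, a BMP co-receptor, rose by 2.41 ± 0.19 (adjusted p = 2.22e-12) and at week 4 was not detectably below day 8 (log2 -0.01 ± 0.18).

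Of 35 further Wnt pathway genes 32 were tested, and 10 rose and 5 fell from day 0 to day 8 in the duodenum, with a list median of log2 0.24 against -0.06 over all tested genes. There 41.2% of all genes were called and 22% called higher, so these counts say little about the pathway as a whole. In the ileum 9 rose and 2 fell (19.3% of all genes called, 8.56% higher). Among the list's genes of smallest p, in the duodenum the receptor Fzd7 rose by log2 3.12 ± 0.19, the ligand Wnt3 by 2.75 ± 0.27 and the transcription factor Tcf7 by 2.73 ± 0.28 (adjusted p = 8.42e-15, 2.73e-10 and 1.03e-09). Wnt3 then fell by log2 1.20 to week 4 in the duodenum (adjusted p = 0.000127) and was log2 0.35 ± 0.25 higher in the ileum (adjusted p = 0.293). Of 10 tested Notch pathway genes, 5 rose and 3 fell in the duodenum over the first interval, whereas 0 rose and 1 fell in the ileum. In the duodenum Hes1, the Notch-induced repressor, rose by log2 1.00 ± 0.16 (adjusted p = 2.63e-06) and Hey1, which endothelium also expresses, fell by 3.58 (adjusted p = 9.09e-07).

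Cell cycle genes rose and fell as a list in the duodenum, where their mean sum did not peak at the same age as the members. All 20 rose from day 0 to day 8 in the duodenum (22% of all genes called higher). All 20 fell there from day 8 to week 4 (23.8% called lower). On the mean over ages 20 of 20 were lower in the ileum (30.2% called lower). In the ileum 19 rose and then 13 fell (8.56% called higher and 17.3% lower). Top2a, the topoisomerase of dividing cells, rose by log2 2.82 ± 0.26 and fell by 1.42 in the duodenum (adjusted p = 1.34e-10 and 1.50e-05). Their summed duodenal level was 604 to 728 CPM at day 0, 3205 to 3458 at day 8 and 920 to 1536 at week 4. The duodenal mean sum was 2726 CPM at day 4 (samples 1994 to 3421), 2719 at day 6 (2 samples) and 3348 at day 8, and so was not highest at day 6. In the ileum the mean sum was highest at day 8, at 1354 CPM, as were the means of Lgr5, Olfm4, Ascl2 and Znrf3. From week 2 to week 3, when 5 duodenal and 4 ileal members fell, the duodenal mean sum was 1608 and then 1799 CPM, and the ileal one went from 750 to 1091, as values without a test. Whether the members' course differs from that of dividing cells in general was not tested.

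Other cell types moved too, and the shares of all genes called in each comparison are those given with the counts of members above. Paneth cell markers, from the granule cells that neighbour the stem cells, rose in 7 of 8 genes to day 8 and in 8 of 8 from day 8 to week 4 in both regions, and so kept rising while Lgr5 fell. Lyz1, lysozyme, rose by log2 4.01 ± 0.44 and then by 4.18 ± 0.43 in the duodenum (adjusted p = 6.37e-09 and 8.96e-10). Endothelium markers fell in 6 of 6 genes from day 0 to day 8 in the duodenum, from a summed 107 to 205 CPM to 8.81 to 14.2, and fibroblast markers fell in 4 of 8, from 144 to 246 CPM to 26.1 to 75.6. No gene of these 3 lists was at 0 in all samples of a group at day 0, day 8 or week 4. Fibroblast markers were higher in ileum than duodenum in 8 of 8 genes and endothelium markers in 6 of 6 on the mean over ages, the opposite direction to the members. Smooth muscle markers were higher in the ileum in 7 of 8 and nerve and glia markers in 6 of 7, and 1 of each list was lower. Immune cell markers were higher in 4 of 6. In this comparison 62.1% of all genes were called and 30.2% were called lower in the ileum, so calls in either direction were common. Pancreatic acinar markers were lower in the ileum in 9 of 10 and stomach markers in 2 of 5 tested. Of 7 tested genes of fetal and injured epithelium, 4 fell from day 0 to day 8 in the duodenum, among them Ly6a (log2 -3.14 ± 0.44, adjusted p = 2.89e-07), and 2 fell in the ileum. Epithelium markers rose in 6 of 12 from day 8 to week 4 in the duodenum and in 9 of 12 in the ileum, and 1 fell in each. The part of these cell types in the members' values was not tested.

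**Figure D5:**
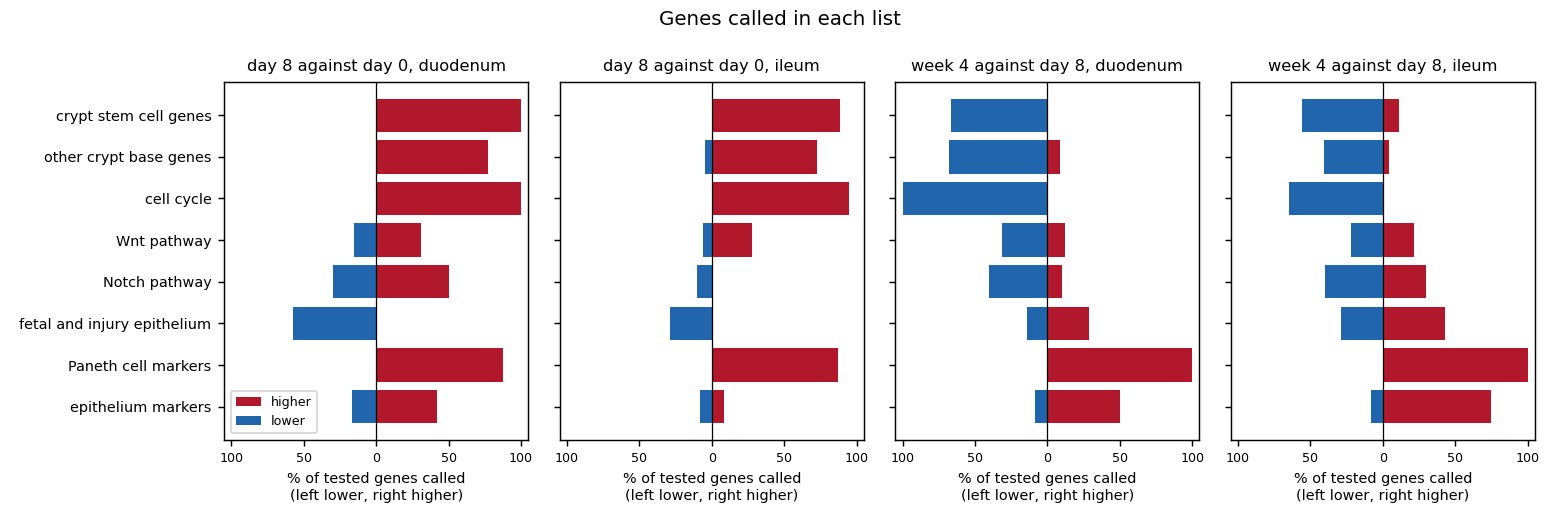
Share of the tested genes of each list called higher (red, right) or lower (blue, left) from day 0 to day 8 and from day 8 to week 4 in each region. The crypt stem cell genes and the cell cycle genes are called higher throughout in the first duodenal panel, 9 of 9 and 20 of 20, and Paneth cell markers are called higher in 8 of 8 in both week 4 panels.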

How the data were processed

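RNA-seq of duodenum and ileum at 8 ages was used. The deposited table holds estimated counts per gene in whole numbers, summarised with tximport per the file headers. The submitters' processing notes name STAR 2.6.1d, Salmon 0.14.2, DESeq2 1.30.1 and the build mm10, without their order. The authors' normalized signal tables, for 40 of the 48 samples, served only for gene symbols and for 1 alternative. They are proportional to the counts in all 40 columns.

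The counts of 46 samples were scaled by TMM, filtered with filterByExpr and fitted with 1 mean per region and age in edgeR 4.0.16 (quasi-likelihood, R 4.3.3). P-values were adjusted by Benjamini-Hochberg over all genes, with a threshold of 0.05. CPM values are TMM-scaled. SE was taken as log2 fold change over root F, and 95% intervals follow from it. Per-kilobase values use the union of exons in GENCODE release M21. The 2 day 6 samples numbered 3 were left out. The code was tested on simulated data.

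The members and lists were chosen with earlier results of these data known. All 9 members are named. Of each list, up to 4 genes with the smallest p between day 0 and day 8 in the duodenum could be named, and for likeness the 2 genes of highest r, from those averaging log2 CPM 1 or more. The smooth muscle genes named in the tissue check were chosen after their values were seen. The alternatives tried were RLE scaling, no filter, a mean count of at least 10, DESeq2 1.42.0, only the compared groups, all 48 samples, the 40 samples of the normalized tables, a replicate block and leaving out each sample in turn.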

Additional observations from a re-analysis of the deposited data

Results flagged for a closer look

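The course with age differed between duodenum and ileum for 5 of the 9 genes by edgeR's region by age interaction, adjusted over all genes. The adjusted p was 0.000777 for Axin2, 0.00572 for Rnf43, 0.00583 for Olfm4, 0.00839 for Lgr5 and 0.0276 for Lrig1. With the 2 day 6 samples that lie nearer the other region kept under their labels, none of the 5 passed, with adjusted p of 0.184, 0.354, 0.668, 0.402 and 0.534 in the same order. The calls of Axin2, Rnf43, Olfm4 and Lgr5 were kept on leaving out each of the 46 samples in turn. That of Lrig1 was lost in 6 of those 46 fits, with an adjusted p of up to 0.0998.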

How the results depend on the processing

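Over single comparisons, 33 of 249 counts of members called under the alternatives, single samples left out aside, lay beyond 1.5 times the main count, 13 of them with all 48 samples and 10 with only the compared groups. With only the compared groups, calls went from 8 to 0 for day 4 against day 2 and from 4 to 0 for day 6 against day 4 in the duodenum. These fits called 0 of 17939 and 0 of 18023 genes, so the losses were not particular to the members. Of the totals over comparisons and the interaction, 4 values moved that far. Putting the 2 day 6 samples back under their labels gave 0 members instead of 5 for the interaction, 10 instead of 25 calls over the duodenal steps, and 15 instead of 37 over the 8 regional comparisons by age, and the 40 samples of the normalized tables gave 9 for the interaction. Over all genes the interaction was called for 4930, for 947 with all 48 samples and for 9512 with the 40. Leaving out each sample in turn gave 8 to 9 members for the age effect in the duodenum and 8 in the ileum, 8 to 9 and 7 to 8 for day 8 against day 0, 6 and 5 to 7 for week 4 against day 8, 7 to 8 and 7 for week 4 against day 0, 8 for the regional mean, 4 to 7 for the interaction, 20 to 26 and 8 to 13 for the steps, and 34 to 39 for the 8 ages. The ileal rise of Lgr4 from day 8 to week 4 turned sign on the scale relative to the epithelium markers (log2 -0.24). Under the alternatives no called difference of a member changed sign. Of those not called, Znrf3, week 4 against day 0, duodenum, was log2 -0.006 with a mean count of at least 10, -0.0302 with the 40 samples and -0.0066 with only the compared groups, and -0.0732 to 0.171 leaving out samples. The log2 value of Znrf3, week 4 against day 0, ileum, was 0.0018 under RLE and 0.0021 under DESeq2, and -0.1622 to 0.0441 leaving out samples. Axin2, week 4 against day 8, ileum, was 0.0244 under RLE, 0.0278 with a mean count of at least 10, 0.0237 under DESeq2 and 0.037 with only the compared groups, and -0.1626 to 0.1149 leaving out samples. Ranges on leaving out samples were -0.3012 to 0.2112 for Smoc2 in that comparison, -0.0284 to 0.1516 for ileal Rnf43 at week 4 against day 0, and -0.0332 to 0.0502 for Lgr4, ileum against duodenum, mean over ages, which was -0.0081 without a filter. The cause of these changes was not tested. With a replicate block, 7 members were called for day 8 against day 0 in the ileum (Znrf3 adjusted p = 0.0591), 6 for the interaction, 24 over the duodenal steps and 41 over the 8 ages. Same-numbered samples of the regions were not shown to be paired: 9 of 23 pairs had a correlation of deviations over 0.1. The 40 samples gave no total for steps or ages, and the regional mean and interaction have no fit on fewer groups. Depth limits Ascl2 at day 0 most, and each group has 2 or 3 samples.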
